A study of Mus musculus with 5 samples.

Results

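The platelet-derived growth factor (PDGF) family was examined in marrow stromal cells of 2 fetal origins. It was taken as the 4 ligand genes *Pdgfa*, *Pdgfb*, *Pdgfc* and *Pdgfd* and the 2 receptor genes *Pdgfra* and *Pdgfrb*. These 6 genes were chosen by name, among 30046 features with counts. The 5 bulk RNA-seq libraries were made from CXCL12-abundant reticular (CAR) cells, the stromal cells of bone marrow that express *Cxcl12*, sorted as GFP+tdTomato+ from femurs on postnatal day 21. The 3 libraries of Dlx5CE-E12.5 cells came from Cxcl12(GFP/+); Dlx5(CreER/+); R26R(tdTomato/+) mice, in which the pulse marks fetal perichondrial cells and their descendants. The 2 libraries of Fgfr3CE-E12.5 cells came from Cxcl12(GFP/+); Fgfr3-iCreER; R26R(tdTomato/+) mice, in which it marks fetal chondrocytes and their descendants. All mice received tamoxifen at embryonic day 12.5, carried a GFP gene on 1 of the 2 *Cxcl12* alleles, and were pooled as littermates before sorting. Each creER line labels cells in which its driver was active around the pulse, and their descendants. The paper gives as a limitation that further recombination may go on for several days after tamoxifen. The gate on GFP selected cells by *Cxcl12* itself.

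PDGFs are secreted as dimers that bind 2 receptor tyrosine kinases and drive the growth and migration of mesenchymal cells. PDGF-A and PDGF-C act mainly through the alpha receptor, PDGF-B binds both receptors, and PDGF-D acts mainly through the beta receptor. PDGF-A and PDGF-B are cut inside the cell by furin-like proteases, whereas PDGF-C and PDGF-D carry a CUB domain that must be removed outside the cell before they can bind. In bone, the alpha receptor is a common marker of mesenchymal progenitors and marrow stroma, the beta receptor is also a classical pericyte marker, and PDGF-B is made by endothelial cells, megakaryocytes and osteoclast precursors.

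Promoter sequence was found in the RefSeq table of GRCm38.p6 for 4 of the 6 genes. The 250 bases before the start site are shown for the gene with the largest rise in Fgfr3CE-E12.5 cells, the gene that fell and the most abundant ligand gene, at chr3:81036166-81036415, chr5:75152001-75152250 and chr9:6168236-6168485 on the forward strand, with matches to 6 motifs in capitals.
Pdgfc: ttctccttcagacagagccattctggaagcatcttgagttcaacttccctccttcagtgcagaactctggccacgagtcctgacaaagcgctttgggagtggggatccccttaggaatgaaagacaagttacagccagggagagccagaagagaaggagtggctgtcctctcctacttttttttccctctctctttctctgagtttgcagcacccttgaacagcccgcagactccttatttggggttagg
Pdgfra: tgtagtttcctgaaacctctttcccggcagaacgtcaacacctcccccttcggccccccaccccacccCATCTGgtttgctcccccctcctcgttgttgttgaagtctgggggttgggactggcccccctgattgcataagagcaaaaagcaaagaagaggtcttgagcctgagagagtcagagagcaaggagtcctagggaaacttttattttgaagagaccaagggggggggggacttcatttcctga
Pdgfd: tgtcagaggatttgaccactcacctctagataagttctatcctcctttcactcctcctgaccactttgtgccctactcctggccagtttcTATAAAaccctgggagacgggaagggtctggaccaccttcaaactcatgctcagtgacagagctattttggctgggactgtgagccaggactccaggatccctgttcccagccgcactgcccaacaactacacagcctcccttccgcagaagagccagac

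The motifs searched on both strands were GGGCGG (the GC box), TATAAA (the box bound by the TATA-binding protein), CCAAT (bound by NF-Y), TGANTCA (the AP-1 site), CANNTG (the E-box) and TGACGTCA (the cyclic AMP response element). No 2 matches overlapped in these windows. *Pdgfc* held none of them, *Pdgfra* held 1 E-box, whose first base was at -182, and *Pdgfd* held 1 TATA box, at -160. Of 32851 promoters of the same length, 66.2% held an E-box, 12.4% a TATA box, 33.9% the NF-Y motif, 6.75% an AP-1 site and 1.55% the cyclic AMP response element. The windows before the start sites of *Pdgfa* held 1 and 2 GC boxes, a motif found in 32.7% of all promoters. G and C made up 66.4% and 72.4% of their bases, compared with 50.8% for *Pdgfc*, 54.4% for *Pdgfra*, 53.6% for *Pdgfd* and a median of 52.4%.

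In GRCm38, the build that mm10 names, *Pdgfra* (ENSMUSG00000029231) lies on chromosome 5 from 75152292 to 75198215 on the forward strand, and *Pdgfrb* (ENSMUSG00000024620) on chromosome 18 from 61045150 to 61085061, also forward. *Pdgfa* (ENSMUSG00000025856) lies on chromosome 5 from 138976014 to 138997370 and *Pdgfb* (ENSMUSG00000000489) on chromosome 15 from 79995874 to 80014977, both on the reverse strand. *Pdgfc* (ENSMUSG00000028019) spans chromosome 3 from 81036416 to 81214040 and *Pdgfd* (ENSMUSG00000032006) chromosome 9 from 6168584 to 6378850, both forward.

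Total counts were 22035650 to 32563758 in the Dlx5CE-E12.5 libraries and 56355203 to 58166285 in the Fgfr3CE-E12.5 libraries, so the 3 counts taken as the detection floor equal 0.0516 to 0.136 CPM (the count scaled to a fixed library total), which covers counting error only. The study's methods give paired-end reads on one sequencer for the Dlx5CE-E12.5 libraries and shorter single-end reads on another for the Fgfr3CE-E12.5 libraries, whereas the deposited design text names one sequencer for all. By the methods, read format and lineage cannot be told apart. As CAR markers, 9 defining genes were taken (*Cxcl12*, *Lepr*, *Kitl*, *Adipoq*, *Ebf3*, *Ebf1*, *Foxc1*, *Il7* and *Vcam1*), which were all present. The cells were sorted by *Cxcl12*, so its presence is no check of the CAR cell label. The summed level of the 9 genes was 32788 to 34492 CPM in Dlx5CE-E12.5 cells but 12770 and 8234 CPM in Fgfr3CE-E12.5 replicates 2 and 3. Of the 9, 7 were called higher in Dlx5CE-E12.5 cells. *Foxc1* was called higher in Fgfr3CE-E12.5 cells, at means of 47.7 and 337 CPM. All 11 of 11 pan-leukocyte markers were called higher in Fgfr3CE-E12.5 cells, with a sum of 495 to 618 CPM in Dlx5CE-E12.5 cells and of 1527 and 3350 CPM in Fgfr3CE-E12.5 replicates 2 and 3. Osteoblast markers summed to 3784 to 5335 CPM and to 7241 and 9705 CPM. Chondrocyte markers summed to 125 to 133 CPM and to 3157 and 420 CPM, so that Fgfr3CE-E12.5 replicate 2 stood apart. Both lists were divided. Of 8 osteoblast markers, 4 were called higher in Fgfr3CE-E12.5 cells and 1, *Phex*, in Dlx5CE-E12.5 cells. Of 7 chondrocyte markers, 2 were tested. *Col2a1*, at means of 3.64 and 1470 CPM, was called but reached 10 CPM only in Fgfr3CE-E12.5 cells. *Sox9*, most of the sum in Dlx5CE-E12.5 cells, had means of 121 and 75.2 CPM and was not called. Over all genes tested, 16.4% were called higher in Fgfr3CE-E12.5 cells and 13.1% in Dlx5CE-E12.5 cells.

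The comparison asks how stromal cells of perichondrial and of chondrocyte origin differ in their PDGF genes. *Pdgfra* fell in Fgfr3CE-E12.5 cells, *Pdgfc* and *Pdgfa* rose, and *Pdgfrb*, *Pdgfd* and *Pdgfb* did not pass the test. A gene was called in edgeR's quasi-likelihood test where its adjusted p lay below 0.05 and its log2 fold change, Fgfr3 over Dlx5, exceeded 1 in size. Of the 6 genes, 5 reached 10 CPM in 2 or more libraries, the level required for testing. *Pdgfc* reached that level only in the Fgfr3CE-E12.5 libraries, so a difference was built into its inclusion. Of the 6, 2 were called higher in Fgfr3CE-E12.5 cells, as were 16.4% of the 10093 genes tested, and 1 was called higher in Dlx5CE-E12.5 cells, as were 13.1%. The libraries of the lineages did not overlap for 4 of the 6 genes. Among all genes tested, the Fgfr3CE-E12.5 libraries lay above the others for 34.8% and below them for 34.1%.

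**Figure D1:**
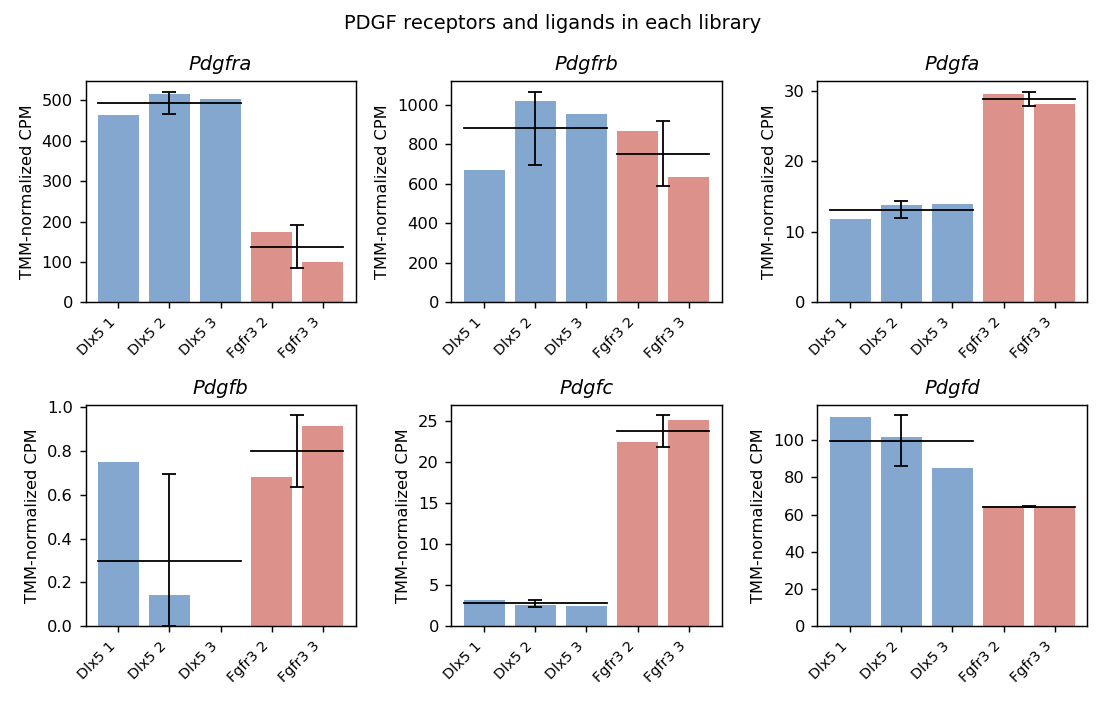
Bars give the TMM-normalized CPM (vertical axes, linear, from 0) of the 6 genes in each of the 3 Dlx5CE-E12.5 (blue) and 2 Fgfr3CE-E12.5 (red) libraries; horizontal lines are group means and whiskers 1 SD, stopped at 0. *Pdgfra* was 463 to 516 CPM in the blue libraries and 175 and 100 CPM in the red ones, *Pdgfc* and *Pdgfa* show the reverse order, and the bars of *Pdgfrb* overlap.

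Among the receptors, *Pdgfra*, which encodes the alpha receptor, had 463, 516 and 503 normalized CPM in Dlx5CE-E12.5 replicates 1 to 3 and 175 and 100 CPM in Fgfr3CE-E12.5 replicates 2 and 3. Every Dlx5CE-E12.5 library thus lay above both Fgfr3CE-E12.5 libraries, which themselves differed by 1.75 times. The means were 494 ± 27.7 CPM (SD, n = 3) and 138 ± 52.9 CPM (SD, n = 2). The log2 fold change was -1.84 (standard error 0.25, 95% interval -2.45 to -1.24, adjusted p = 0.00132, edgeR's quasi-likelihood test), which is 3.59-fold lower in Fgfr3CE-E12.5 cells. In bulk libraries, a smaller number of cells of one type and less RNA in each cell cannot be told apart. The summed CAR markers, of which the gated gene *Cxcl12* made up 63.1% to 70.5%, moved with *Pdgfra*. Per 1000 CPM of these markers, *Pdgfra* stood at 14.1, 15.0 and 14.9 CPM in the Dlx5CE-E12.5 libraries and at 13.7 and 12.2 CPM in the Fgfr3CE-E12.5 libraries. On the same measure *Pdgfrb* was 20.4 to 29.5 in Dlx5CE-E12.5 cells and 68.0 and 77.1 in Fgfr3CE-E12.5 cells. The part of the CAR cell content in the fall of *Pdgfra* was not tested.

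*Pdgfrb*, the gene of the beta receptor, had 669, 1019 and 952 CPM in the Dlx5CE-E12.5 libraries and 868 and 635 CPM in the Fgfr3CE-E12.5 libraries. The groups overlapped, and the lowest and the highest libraries of the Dlx5CE-E12.5 group differed by 1.52 times. In edgeR the difference was -0.23 on the log2 scale, with a standard error of 0.24 and an adjusted p of 0.463, which is within the spread between libraries. Its 95% interval of -0.79 to 0.34 leaves room for a level 1.73-fold lower or 1.26-fold higher in Fgfr3CE-E12.5 cells. Without Fgfr3CE-E12.5 replicate 3 the log2 fold change was 0.042, so the data give it no direction. Of 11 mural cell markers, 9 were tested. Of these, 4 were called higher in Fgfr3CE-E12.5 cells and 1 in Dlx5CE-E12.5 cells, beside 16.4% and 13.1% of all genes tested. *Acta2*, *Cspg4*, *Mcam* and *Tagln* reached 10 CPM in at most 1 Dlx5CE-E12.5 library, and *Des* in no Fgfr3CE-E12.5 library. A difference was thus built into their inclusion. The sum of the 11 markers was 347 to 475 CPM in Dlx5CE-E12.5 cells and 457 and 345 CPM in Fgfr3CE-E12.5 cells. *Myh11* and *Higd1b*, of smooth muscle cells and pericytes, did not pass the filter.

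The ratio of the receptors within a library does not depend on scaling between libraries, but it does depend on the gene lengths used. Per kilobase of exon, *Pdgfrb* exceeded *Pdgfra* by 2.64, 3.61 and 3.46 times in Dlx5CE-E12.5 replicates 1 to 3, and by 9.08 and 11.6 times in Fgfr3CE-E12.5 replicates 2 and 3. The ratios of the groups did not overlap. Their mean log2 difference was 1.68, a 3.20-fold larger ratio in Fgfr3CE-E12.5 cells, with SDs of the log2 ratio of 0.24 (n = 3) and 0.25 (n = 2). A two-sided exact permutation test, which doubles the smaller one-sided p, gave p = 0.2. This is the smallest value that test can give for 3 libraries against 2. *Pdgfra* thus made up 21.7% to 27.4% of the receptor transcript level per length in Dlx5CE-E12.5 cells and 9.92% and 7.94% in Fgfr3CE-E12.5 cells. Per kilobase of the longest transcript, the Dlx5CE-E12.5 means were 72.3 CPM for *Pdgfra* and 162 CPM for *Pdgfrb*, and the log2 difference stayed at 1.68. After a trend on gene length was removed, the log2 fold changes were -1.57 for *Pdgfra* and -0.33 for *Pdgfrb*, in place of -1.84 and -0.23.

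**Figure D2:**
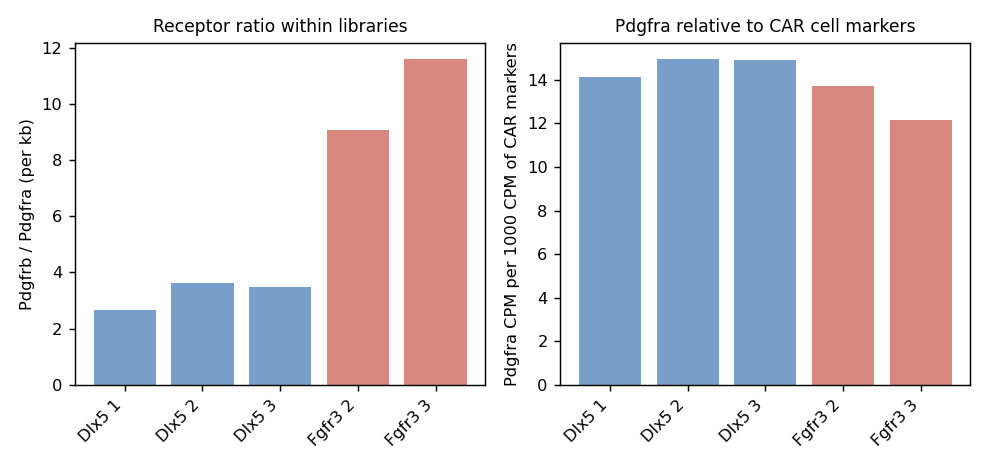
Left, the ratio of *Pdgfrb* to *Pdgfra* (CPM per kilobase) in each library, and right, *Pdgfra* CPM per 1000 CPM of the 9 summed CAR markers; Dlx5CE-E12.5 libraries are blue and Fgfr3CE-E12.5 libraries red, and both axes start at 0. The receptor ratio was 2.64 to 3.61 in the blue libraries and 9.08 and 11.6 in the red ones, while *Pdgfra* per CAR marker level ran from 12.2 to 15.0.

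Among the ligands of the alpha receptor, *Pdgfc* had 3.23, 2.54 and 2.51 CPM in the Dlx5CE-E12.5 libraries and 22.4 and 25.1 CPM in the Fgfr3CE-E12.5 libraries. The replicates of each lineage lay close together and far from the other lineage. *Pdgfc* rose, with a log2 fold change of 3.10 (SE 0.24, 95% interval 2.54 to 3.66, adjusted p = 0.000125, edgeR), 8.57-fold higher in Fgfr3CE-E12.5 cells. The raw counts behind this were 99, 54 and 63 in Dlx5CE-E12.5 cells and 1378 and 1592 in Fgfr3CE-E12.5 cells. The leukocyte marker sum was 2.19 times as high in Fgfr3CE-E12.5 replicate 3 as in replicate 2, whereas *Pdgfc* differed by 1.12 times. The part of other cell types in its level was not tested.

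*Pdgfa*, whose product forms PDGF-AA, had 11.7, 13.8 and 13.9 CPM in the Dlx5CE-E12.5 libraries and 29.6 and 28.1 CPM in the Fgfr3CE-E12.5 libraries. Both Fgfr3CE-E12.5 libraries exceeded all others, and differed between themselves by 1.05 times. The means were 13.1 ± 1.20 CPM (SD, n = 3) and 28.9 ± 1.02 CPM (SD, n = 2), a log2 fold change of 1.14 (standard error 0.18, 95% interval 0.72 to 1.56, adjusted p = 0.00221, edgeR). This 2.2-fold rise lies near the threshold, and was 1.00 on the log2 scale after a trend on gene length was removed. The antisense gene *6330403L08Rik* overlaps exons of *Pdgfa*, and 21.3% of the 50-base windows of *Pdgfa* transcripts occur in it. It had 80, 40 and 42 counts in Dlx5CE-E12.5 cells and 233 and 239 in Fgfr3CE-E12.5 cells. The strand setting of the counting is not given in the sources used here, so reads of *Pdgfa* and this gene cannot be told apart.

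*Pdgfd*, a ligand of the beta receptor, was the most abundant ligand gene. It had 112, 102 and 85.2 CPM in the Dlx5CE-E12.5 libraries and 64.3 and 63.9 CPM in the Fgfr3CE-E12.5 libraries. The Dlx5CE-E12.5 libraries were all above the Fgfr3CE-E12.5 libraries, but the difference was under the fold change threshold. The log2 fold change was -0.64 (standard error 0.16, 95% interval -1.01 to -0.27, adjusted p = 0.0141, edgeR), or 1.56-fold lower in Fgfr3CE-E12.5 cells. Taken alone, an adjusted p below 0.05 in that direction was reached by 23.4% of the genes tested. That of *Pdgfd* was 0.0612 when libraries were scaled by total count alone, and 0.0543 to 0.0666 without Dlx5CE-E12.5 replicate 2, Fgfr3CE-E12.5 replicate 2 or Fgfr3CE-E12.5 replicate 3.

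*Pdgfb*, whose product binds both receptors, was barely detected, with 23, 3 and 0 counts in Dlx5CE-E12.5 cells and 42 and 58 counts in Fgfr3CE-E12.5 cells. These are 0 to 0.750 CPM and 0.682 and 0.915 CPM, and Dlx5CE-E12.5 replicate 1 lay between the Fgfr3CE-E12.5 libraries. It failed both low-count filters. In a fit with no filter, its log2 fold change was 1.38 with a 95% interval of -1.71 to 4.47 (adjusted p = 0.463, edgeR), so no difference was detectable at this depth. Of the 17120 genes in that fit, 23.4% were called. Without Dlx5CE-E12.5 replicate 1 it was 3.51, with an adjusted p of 0.0965. Of markers of the cells known to make PDGF-B, 1 of 10 for megakaryocytes, 2 of 11 for endothelium and 2 of 7 for osteoclasts passed the filter. The megakaryocyte markers summed to 16.1 to 22.7 CPM in Dlx5CE-E12.5 cells and to 118 and 76.2 CPM in Fgfr3CE-E12.5 cells. *Itgb3*, the only marker of these that was tested, supplied 8.16 to 15.4 CPM and 46.3 and 59.3 CPM of these sums. The endothelial markers summed to 211 to 260 CPM and to 133 and 117 CPM, and the osteoclast markers to 189 to 195 CPM and to 248 CPM in both Fgfr3CE-E12.5 libraries. The tested markers behind these 2 sums were divided. *Eng*, most of the endothelial sum in Dlx5CE-E12.5 cells, fell from 183 to 71.1 CPM and was called. *Pecam1* went from 8.86 to 17.0 CPM and was not called. *Ctsk*, at 177 and 171 CPM, was not called, while *Acp5* rose from 14.4 to 60.7 CPM and was called. The part of megakaryocytes, endothelium and osteoclasts in the level of *Pdgfb* was not tested.

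**Figure D3:**
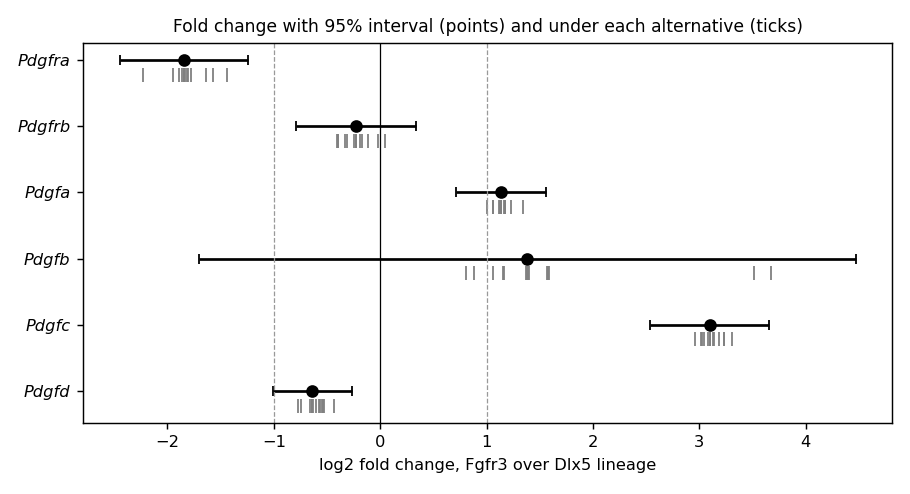
Points are log2 fold changes of Fgfr3CE-E12.5 over Dlx5CE-E12.5 cells with 95% intervals (horizontal axis), grey ticks the values under the alternatives tried, and dashed lines the threshold of 1 in either direction; *Pdgfb* comes from the fit with no filter. *Pdgfra* at -1.84, *Pdgfc* at 3.10 and *Pdgfa* at 1.14 lie beyond the dashed lines, and the interval of *Pdgfb* runs from -1.71 to 4.47.

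Compared per kilobase of exon, the order of the levels in Dlx5CE-E12.5 cells was *Pdgfrb* (161 ± 33.9 CPM per kilobase, SD, n = 3), *Pdgfra* (49.3 ± 2.76), *Pdgfd* (31.6 ± 4.33), *Pdgfa* (4.21 ± 0.38), *Pdgfc* (0.542 ± 0.0801) and *Pdgfb* (0.0714 ± 0.0958). No library broke this order, so neighbouring genes differed beyond their spread in Dlx5CE-E12.5 cells. In Fgfr3CE-E12.5 cells *Pdgfrb* came first at 137 ± 30.1 CPM per kilobase (SD, n = 2), followed by *Pdgfd* at 20.3 ± 0.0985 and *Pdgfra* at 13.7 ± 5.28. *Pdgfa* stood at 9.25 ± 0.328, *Pdgfc* at 4.67 ± 0.378 and *Pdgfb* at 0.192 ± 0.0395. In replicate 3, *Pdgfra* at 9.99 and *Pdgfa* at 9.02 CPM per kilobase were close neighbours, in the same order as in replicate 2. Per kilobase of the longest transcript the means of *Pdgfd* and *Pdgfra* in Fgfr3CE-E12.5 cells were 20.5 ± 0.0993 and 20.1 ± 7.74, a difference within their spread. Per length, 96.6% to 98.0% of the genes tested lay at or below *Pdgfrb* in each library. For *Pdgfra* this share was 89.6% to 91.7% in the Dlx5CE-E12.5 libraries and 72.5% and 54.2% in the Fgfr3CE-E12.5 libraries.

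**Figure D4:**
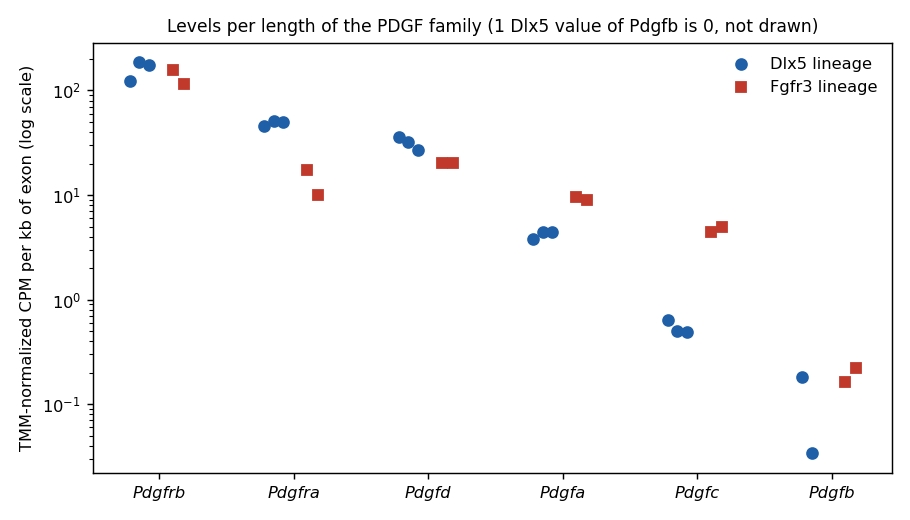
TMM-normalized CPM per kilobase of exon (vertical log axis) of the 6 genes, 1 symbol per library, circles for the 3 Dlx5CE-E12.5 and squares for the 2 Fgfr3CE-E12.5 libraries; the Dlx5CE-E12.5 library with no *Pdgfb* counts is not drawn. *Pdgfrb* is highest in both lineages, and *Pdgfra* lies above *Pdgfd* in Dlx5CE-E12.5 cells and below it in Fgfr3CE-E12.5 cells.

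The sum of the 4 ligand genes per length overlapped between the lineages, at 32.0 to 40.2 CPM per kilobase in Dlx5CE-E12.5 cells and 34.4 in each Fgfr3CE-E12.5 library, but its make-up differed. *Pdgfd* made up 84.5% to 88.6% of it in Dlx5CE-E12.5 cells and 59.2% and 58.8% in Fgfr3CE-E12.5 cells. *Pdgfa* accounted for 9.37% to 13.9% and for 27.5% and 26.2%, and *Pdgfc* for 1.34% to 1.58% and for 12.8% and 14.3%, respectively. Together, the transcripts of *Pdgfa* and *Pdgfc*, whose products act mainly through the alpha receptor, stood at 0.0953 to 0.0985 per *Pdgfra* transcript in Dlx5CE-E12.5 cells, and at 0.795 and 1.40 in Fgfr3CE-E12.5 cells. These ratios compare transcript levels and not proteins.

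For each member that passed the filter, the genes with the most similar profile were taken as those with the smallest root mean square difference of centred log2 CPM over the 5 libraries. For *Pdgfra* these were *Esr1* (difference 0.0477), which encodes an estrogen receptor, *Tulp3* (0.0507) and the transcription factor gene *Eya1* (0.0519). For *Pdgfrb* they were *Ankrd12*, *Apbb3* and the prostaglandin receptor gene *Ptger4*, at 0.0445 to 0.0650. *Pdgfa* was closest to *Setd3*, *Ubfd1* and *Zcchc24* (0.0369 to 0.0468), and *Pdgfd* to *Copa*, *BC029722* and the Ras gene *Nras* (0.0388 to 0.0520). The profiles nearest to *Pdgfc* were those of the histone variant gene *H2afy* (0.0286) and *Phf10* (0.0409), genes used in most cell types, with log2 fold changes of 2.90 and 2.89. Among the members, *Pdgfrb* and *Pdgfd* were the closest pair, at 0.390, and *Pdgfra* and *Pdgfc* the farthest, at 2.37.

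Around the family, 89 genes in 6 lists were examined, and 79 passed the filter. Of these, 21 were called higher in Fgfr3CE-E12.5 cells (26.6%, beside 16.4% of the 10093 genes) and 17 higher in Dlx5CE-E12.5 cells (21.5%, beside 13.1%). The median log2 fold change was -0.05, against 0.01 for all genes tested. Of the 21, 9 reached 10 CPM in fewer than 2 Dlx5CE-E12.5 libraries, and of the 17, 2 did so in fewer than 2 Fgfr3CE-E12.5 libraries, so that a difference was built into their inclusion, and these counts and the list medians are descriptions. The count higher in Fgfr3CE-E12.5 cells was 13 without Fgfr3CE-E12.5 replicate 2 and 14 without replicate 3, where a gene below 10 CPM in Dlx5CE-E12.5 cells can no longer be tested.

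Of 9 genes of ligand processing, 6 were tested, 1 rose and 2 fell in Fgfr3CE-E12.5 cells, with a median log2 fold change of 0.49. *Plat*, tissue plasminogen activator, which cuts PDGF-C, rose from 17.8 ± 2.37 CPM (SD, n = 3) to 80.8 ± 18.9 CPM (SD, n = 2), a log2 fold change of 2.19 (adjusted p = 0.000252, edgeR). *Pcsk5*, a furin-like convertase, fell by 1.81 on the log2 scale (adjusted p = 0.00082, edgeR), while *Furin* had a log2 fold change of 0.73 that missed the threshold (adjusted p = 0.0642, edgeR). *Plau*, *St14* and *Pcsk6*, further proteases of the list, failed the filter. *Pcsk6* had 0.228, 2.26 and 0.835 CPM in Dlx5CE-E12.5 replicates 1 to 3 and 7.82 and 20.1 CPM in Fgfr3CE-E12.5 replicates 2 and 3. Its difference was not tested.

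Among 18 tested partners and brakes of the receptors, 3 rose and 5 fell, with a median log2 fold change of -0.27. The Sprouty genes, feedback inhibitors of receptor kinase signalling, were divided. *Spry1* went from 65.0 to 273 CPM, a log2 fold change of 2.07 (adjusted p = 0.00018, edgeR). *Spry2* went from 13.6 to 1.20 CPM, and *Spry4* from 138 to 44.9 CPM, log2 fold changes of -3.50 and -1.62 (adjusted p = 0.000387 and 0.00309, edgeR). *Spry2* was tested only through its level in Dlx5CE-E12.5 cells, since both Fgfr3CE-E12.5 libraries were below 10 CPM. *Rasa1*, a Ras GTPase-activating protein that binds the beta receptor, and the Ras inhibitor gene *Spred1* rose by 2.09 and 1.36 on the log2 scale. *Cbl* and *Cblb*, ubiquitin ligases that mark active receptors for degradation, had log2 fold changes of -1.39 and -1.14. After the length trend was removed these were -0.94 and -0.84, under the threshold, and *Cblb* was also under it when libraries were scaled by total count alone, at -0.93, and without Fgfr3CE-E12.5 replicate 3, at -0.70. The receptor-like gene *Pdgfrl* had a log2 fold change of -0.52 and was not called (adjusted p = 0.0783, edgeR). *Lrp1*, *Ptprj*, *Ptpn1* and *Ptpn2*, a co-receptor and phosphatases of the receptors, were not called either.

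Of the 32 genes of receptor signalling, all tested, 11 rose and 2 fell in Fgfr3CE-E12.5 cells, with a median log2 fold change of 0.16. The largest rises were those of *Pik3cb*, a catalytic subunit of phosphoinositide 3-kinase, from 0.150 to 16.6 CPM, the adaptor *Nck2*, from 0.603 to 50.2 CPM, the Src-family kinase *Fyn*, from 2.96 to 55.8 CPM, and *Hras*, from 2.42 to 42.5 CPM. Their log2 fold changes were 6.72, 6.38, 4.25 and 4.12 (adjusted p from 3.4e-05 to 0.000135, edgeR). All 4 were below 10 CPM in every Dlx5CE-E12.5 library and were tested only through the Fgfr3CE-E12.5 libraries, so they could not be tested with either of these left out. *Pik3r1*, the regulatory subunit that docks on the receptors, and the phosphatase gene *Ptpn11* fell by 1.43 and 1.46 (adjusted p = 0.0016 and 0.000301, edgeR). *Src*, *Yes1*, *Shc1* and *Sos1* had log2 fold changes of -0.03 to 0.10 and were not called. *Hras* and *Pik3cb* are used in most cell types, and the part of the read format in such large differences was not tested.

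Among 13 tested genes that fibroblasts induce soon after PDGF, 6 fell and 2 rose in Fgfr3CE-E12.5 cells, with a median log2 fold change of -0.71. The part of PDGF signalling in their levels was not tested. The chemokine genes *Ccl7* and *Cxcl1* fell by 2.65 and 2.26 on the log2 scale (adjusted p = 0.0112 and 0.00585, edgeR), and *Fosb* fell by 2.35 (adjusted p = 0.00161, edgeR). Without Fgfr3CE-E12.5 replicate 2 the log2 fold changes of *Ccl7* and *Cxcl1* were -3.87 and -3.05, and without replicate 3 they were -1.92 and -1.67. *Ccl2* fell by 2.18 (adjusted p = 0.04, edgeR), and its adjusted p was 0.0702 without Dlx5CE-E12.5 replicate 2, 0.0796 without Dlx5CE-E12.5 replicate 3, 0.131 without Fgfr3CE-E12.5 replicate 3 and 0.0745 after the length trend was removed. Its log2 fold change ran from -3.54 without Fgfr3CE-E12.5 replicate 2 to -1.41 without replicate 3. *Srf* and *Fosl1*, transcription factor genes, rose from 5.53 to 25.4 CPM and from 9.09 to 21.1 CPM. Both were below 10 CPM in every Dlx5CE-E12.5 library and were tested only through the Fgfr3CE-E12.5 libraries. *Egr1*, *Egr2*, *Ier2* and *Myc* were not called, with log2 fold changes of -0.59 to 0.33. The hyaluronan synthase gene *Has2* failed the filter.

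Of 6 tested receptor kinases of the same class and their ligands, 2 rose and 2 fell, with a median log2 fold change of -0.73. In this group the receptor genes *Kit* and *Csf1r* rose by 2.96 and 2.18, while the ligand genes *Il34* and *Kitl* fell by 3.18 and 2.80 (adjusted p = 0.000621, 0.000747, 0.0011 and 0.0029, edgeR). Without Fgfr3CE-E12.5 replicate 2 the log2 fold changes of *Il34* and *Kitl* were -3.96 and -3.73, and without replicate 3 they were -2.59 and -2.16. *Kit* was below 10 CPM in every Dlx5CE-E12.5 library and was tested only through the Fgfr3CE-E12.5 libraries. *Csf1r*, the receptor for CSF1 and IL-34, is also in the list of 9 macrophage markers. Of these, 6 were tested and 5 were called higher in Fgfr3CE-E12.5 cells, beside 16.4% of all genes tested. *Adgre1* and *Cd68* of that list each reached 10 CPM in 1 Dlx5CE-E12.5 library, so a difference was built into their inclusion. *Flt3* failed the filter, and the part of leukocytes in *Kit* and *Csf1r* was not tested. *Kitl* is also 1 of the 9 CAR markers, whose sum was lower in Fgfr3CE-E12.5 cells. The part of the CAR cell content in *Kitl* and *Il34* was not tested. Of 4 tested VEGF relatives, 2 rose and none fell, with a median log2 fold change of 1.30. *Vegfa* rose from 8.46 ± 4.04 CPM (SD, n = 3) to 507 ± 106 CPM (SD, n = 2), and *Vegfb* from 3.26 to 22.2 CPM, log2 fold changes of 5.91 and 2.77 (adjusted p = 0.000103 and 0.000141, edgeR). *Vegfa* reached 10 CPM in 1 Dlx5CE-E12.5 library and *Vegfb* in none, so both were tested through the Fgfr3CE-E12.5 libraries. The part of the read format in these 2 differences was not tested. *Vegfc* and *Pgf* were not called, and *Vegfd*, *Flt1*, *Kdr* and *Flt4* failed the filter.

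**Figure D5:**
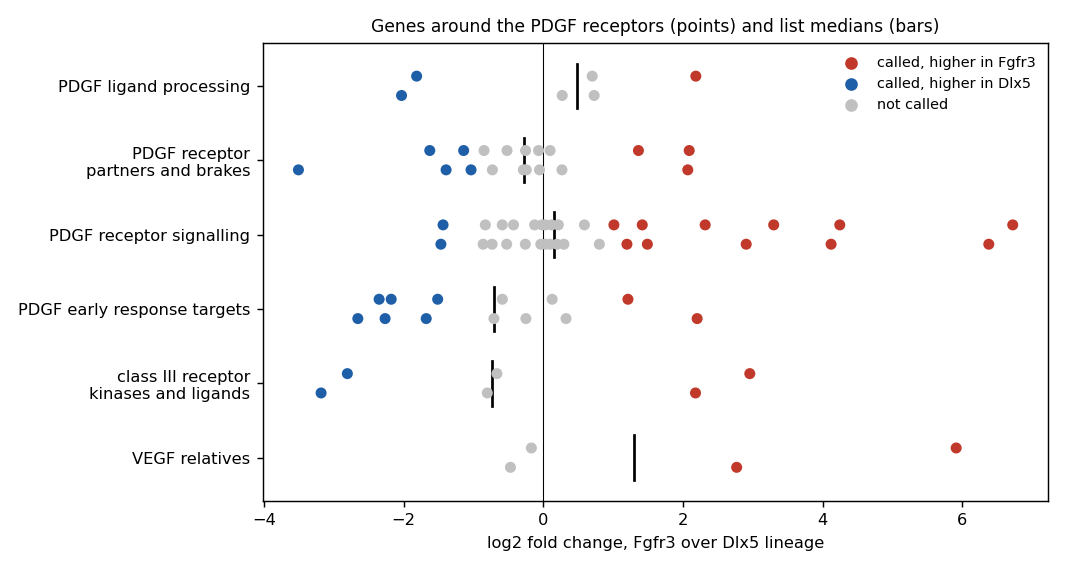
Each point is a tested gene of 1 of 6 lists (vertical axis), placed by its log2 fold change of Fgfr3CE-E12.5 over Dlx5CE-E12.5 cells, red or blue where called higher in Fgfr3CE-E12.5 or Dlx5CE-E12.5 cells and grey where not called; black bars are list medians. Receptor signalling holds 11 red and 2 blue points, early response targets 2 red and 6 blue.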

How the data were processed

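The authors aligned reads to mm10 with TopHat2 2.0.13 and Bowtie2 2.2.1, per the labels, which also name HTSeq and DESeq2, and deposited raw counts of reads per gene. The deposited size-factor and rlog values were not used. Of 30046 features, 29996 were found in GENCODE M21. Libraries were grouped by their titles. Counts of 17115 protein-coding genes and 5 reporter sequences were kept where 2 or more libraries reached 10 CPM, scaled by TMM and fitted with edgeR 4.0.16 in R 4.3.3 by the quasi-likelihood test, with Benjamini-Hochberg adjustment over 10093 genes and no covariates. *Pdgfb* was fitted with no filter. Levels per kilobase used the union of exons. Profile similarity used log2(CPM + 0.5). No 2 libraries of a lineage matched within sampling noise. P-values measure the spread between pools of mice.

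All members are named, with up to 4 called genes per list and direction and the 3 nearest profiles, except that some genes are not reported here. Genes named as not called were picked after their values were seen. Members and lists were chosen with earlier results of these data known. The fit was tested on simulated counts. Alternatives were 2 other scalings, lower filters, all features, edgeR's exact test, DESeq2 1.42.0, no fold threshold, each library left out, a replicate block and removal of length or GC trends. *Pdgfc* without each Fgfr3CE-E12.5 library under a CPM of at least 1 was added after seeing the data.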

Additional observations from a re-analysis of the deposited data

How the results depend on the processing

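With no fold change threshold, 2520 genes were higher in Fgfr3CE-E12.5 cells and 2365 in Dlx5CE-E12.5 cells, in place of 1655 and 1320, *Pdgfd* passed at -0.64, and 26 pathway genes were higher in Dlx5CE-E12.5 cells in place of 17. With each library left out, genes higher in Fgfr3CE-E12.5 cells numbered 997 (without Fgfr3CE-E12.5 replicate 3) to 1682, pathway genes higher there 13 (without Fgfr3CE-E12.5 replicate 2) to 22, and the log2 fold change of *Pdgfrb* ran from -0.40 to 0.042. It turned sign, to 0.042, only without Fgfr3CE-E12.5 replicate 3, and was not called under any alternative. *Pdgfra*, *Pdgfa* and *Pdgfc* kept their direction and call under every alternative, at -2.23 to -1.44, 1.00 to 1.35 and 2.96 to 3.31. The 2 fits of *Pdgfc* with an Fgfr3CE-E12.5 library left out needed a CPM filter of 1. *Pdgfb* ran from 0.81 to 3.68 with no call. Library size as the only scaling moved the median log2 fold change of all genes from 0.01 to 0.22, and the share of calls higher in Fgfr3CE-E12.5 cells from 55.6% to 66.3%. The cause was not tested.

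Replicate numbers shared between the lineages do not pair the libraries, which are different pools, and deviations of equal numbers correlated at 0.124 and -0.0486. With the replicate block, the counts were 1681 and 1386, *Pdgfra* was -1.94, *Pdgfa* 1.06, *Pdgfc* 3.23, *Pdgfd* -0.54, *Pdgfrb* -0.41 and *Pdgfb* 3.68, and no member changed its call. With 1 library of a lineage left, that library is assumed to vary like the others. *Pdgfb* had at most 58 counts in any library, and its log2 fold change was 3.51 without Dlx5CE-E12.5 replicate 1, in place of 1.38.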
